A study of Drosophila melanogaster with 9 samples.

Results

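The comparison described here sets flies with a hairpin against the retrotransposon 412 beside flies with a scrambled hairpin, genome-wide, in the thorax of female Drosophila melanogaster. Its members are all FlyBase genes of the deposited table of this comparison, 13990 of the 14299 genes listed in the series, chosen by their identifiers and not by any measured value. Of these, 10351 had enough reads to be tested and 3639 did not.

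Females were sampled on adult day 20, and the RNA of their pooled thoraces was read by paired-end sequencing. The libraries labelled 412KD came from flies that expressed a short hairpin RNA against 412 under Act5C, the promoter of a cytoplasmic actin gene, which the series' design text calls ubiquitous. The controls, labelled scramble control, expressed a scrambled hairpin from the same driver. Both groups had the genetic background given as W1118 (BL5905), and each held 3 libraries. Another group of 3 libraries, labelled RooKD, carried a hairpin against the retrotransposon roo on the same background and driver, and enters only the last comparison. Whether separate cultures gave these pools is not stated in the labels, so the p-values measure the spread between these pools, which may be technical. The number of hairpin lines behind each label is not given either.

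As background, 412 is a retrotransposon with long terminal repeats, which spreads through an RNA copy that its own enzymes turn back into DNA. A short hairpin RNA is cut by Dicer into small RNAs that guide an Argonaute protein to matching transcripts, and a scrambled hairpin is meant to match none. The fly thorax is filled mostly by flight and leg muscle and also holds parts of the gut, the nerve cord, fat body and blood cells. A sample of it therefore reads the transcripts of several tissues at once, and in such bulk RNA fewer cells of a type and less RNA per cell cannot be told apart.

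Each library had 20600497 to 26177587 reads in 412KD and 19766132 to 23545648 reads in scramble. Flight muscle genes were plain in all libraries, with summed levels of 29920 to 31680 CPM (counts scaled to a common library size) over 35 genes in 412KD and of 25080 to 31230 CPM in scramble. One library stood apart: on the leading principal component, which held 47.9% of the variance, 412KD replicate 3 lay at −64.0, against −11.2 and 3.62 for 412KD replicates 1 and 2 and 16.4 to 30.1 for scramble. That library also had the highest levels of genes of the ovary. Summed over 25 ovary and germline genes, CPM was 414, 307 and 1318 in 412KD replicates 1, 2 and 3 and 294 to 312 in scramble. Over 22 genes of follicle cells and eggshell it was 172, 101 and 1263 in 412KD, against 104 to 108 in scramble. The part of ovarian RNA in the results below was not tested. Values without 412KD replicate 3 are given where that library moved a result most. They still hold 412KD replicate 1, whose sums of ovary and of follicle cell genes also lay above those of scramble.

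No fall of the targeted element was detectable in the libraries labelled 412KD. The 3 features of 412 had 10, 23 and 18 reads in 412KD, against 15, 16 and 11 reads in scramble. Scaled to the library these were 0.728 ± 0.193 CPM in 412KD and 0.614 ± 0.131 CPM in scramble (SD, n = 3 each, exact permutation p = 0.5, two-sided, where 0.1 is the smallest possible). The ratio of reads was 1.22, with a 95% Poisson interval of 0.795 to 1.88 that covers counting error only. For the internal part of 412 alone, with 9, 10 and 14 reads in 412KD and 14, 13 and 7 in scramble, the ratio of mean CPM was 0.977, so the direction depends on the features counted, and a modest change was not detectable at this depth. The label thus rests on the hairpin and not on a measured fall, and 412KD below means the libraries so labelled. Act5C, the source of the driver's promoter, had 49867, 41694 and 42006 normalized counts in 412KD, against 59393, 53755 and 47803 in scramble, and its log2 fold change was −0.27 ± 0.13 (SE, n = 3 each; by edgeR, adjusted p = 0.504).

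Across the genome most genes lay close to no change. The log2 fold changes of the tested genes had a median of 0.01, with 50% of genes between −0.15 and 0.18 and 90% between −0.52 and 0.77. A log2 fold change above 0 was found in 51% of the 10431 features tested, and 372 genes lay above 1 while 138 lay below −1. The spread was thus wider upward than downward. The ranges of the groups lay apart in 17.7% of features, 8.7% with 412KD higher and 9.01% with it lower. An unadjusted edgeR p under 0.05 was found in 11.2%.

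The number of features that passed a test differed widely between the fits. With edgeR's quasi-likelihood test on all 6 libraries and Benjamini-Hochberg adjustment, 2 features rose (0.0192%) and 0 fell (0%), or 0.0192% in either direction, while 553 genes were lower and 599 higher at an unadjusted edgeR p under 0.05. DESeq2 on the same libraries called 214 up (1.89%) and 123 down (1.08%), together 2.97%. The voom method of limma, which gives each library a weight of its own, set 412KD replicate 3 at 0.274 and the other 5 libraries at 0.658 to 1.84. It called 65 up (0.623%) and 25 down (0.24%), together 0.863%. Without 412KD replicate 3, edgeR called 88 up (0.831%) and 17 down (0.16%), together 0.991%. Among features with a value in all of these fits, 38 were called up (0.365%) and 14 down (0.135%) by DESeq2, by voom and by edgeR without 412KD replicate 3 alike. These 52 were all genes. In all 52 the 3 libraries of 412KD lay on 1 side of the 3 scramble libraries, as in 17.7% of all features. The 52 were called from these same libraries, so this separation was close to fixed in advance and adds no evidence. The edgeR adjusted p of the 52 with all libraries ran from 0.0202 to 0.306, with a median of 0.0956. The 3 alternative fits share most of their libraries and are not independent of each other. Below, rose and fell are used of genes that passed edgeR on all 6 libraries or passed all 3 of the other fits. The use of these 3 fits together was chosen after values were seen. For each gene named as one that rose or fell, the edgeR adjusted p with all libraries is given.

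**Figure D1:**
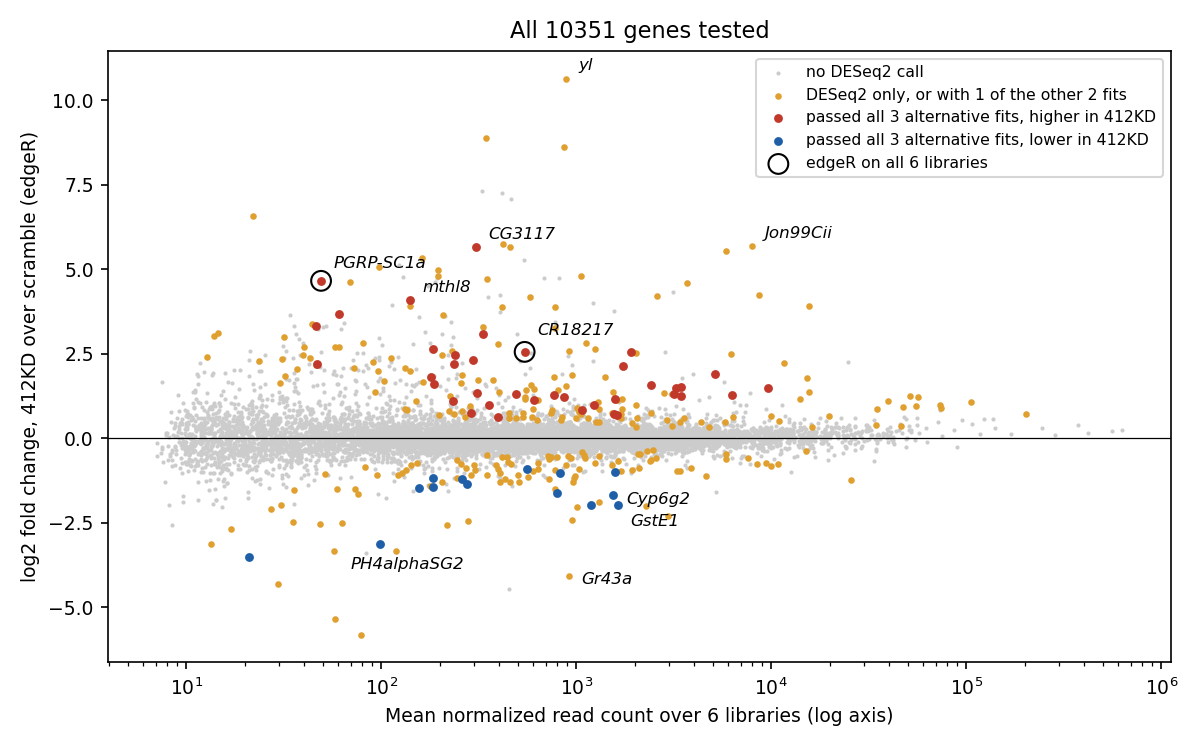
Each point is 1 of 10351 genes, by its mean normalized read count over 6 libraries (log axis) and its log2 fold change of 412KD over scramble. Open circles mark the 2 genes called by edgeR on all libraries. Red and blue points mark the 38 genes higher and the 14 lower in 412KD by all 3 alternative fits, and orange points mark other genes called by DESeq2.

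The 2 genes that edgeR called were a peptidoglycan amidase gene and a pseudogene. PGRP-SC1a, whose product cuts bacterial peptidoglycan in the gut (2R, 8709733 to 8710320 on dm6), had 84.9, 101 and 98.2 normalized counts in 412KD, against 4.56, 2.15 and 4.08 in scramble. All 3 libraries of 412KD lay far above all 3 of scramble, and the difference was 4.66 ± 0.33 log2 units (SE; by edgeR, adjusted p = 0.0202). Its near-identical copy PGRP-SC1b had 221, 282 and 115 normalized counts in 412KD, against 82.2, 118 and 35.7 in scramble (log2 fold change 1.39 ± 0.49, edgeR adjusted p = 0.395). How the reads of the 2 copies were shared out is not recorded, so the single value of PGRP-SC1a is uncertain. The amidase gene beside them, PGRP-SC2, had 11515, 12439 and 2227 normalized counts in 412KD, against 3471, 2667 and 2099 in scramble. It passed only without 412KD replicate 3 (log2 fold change 2.12, edgeR adjusted p = 0.00787, against 0.401 with all libraries).

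The other call was CR18217, a pseudogene on the minus strand (3L, 16600448 to 16602723), which had 874, 1180.4 and 732 normalized counts in 412KD, against 156, 157 and 161 in scramble. It rose by 2.56 ± 0.19 log2 units (SE; by edgeR, adjusted p = 0.0202), and the 3 scramble libraries were within a few counts of each other. The calls of CR18217 and PGRP-SC1a were both lost without 412KD replicate 1 or without any 1 of the scramble libraries, and that of PGRP-SC1a also without 412KD replicate 2. The edgeR adjusted p of these fits reached 0.126 for PGRP-SC1a and 0.136 for CR18217.

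CR18217 lay in a stretch of chromosome arm 3L where 2 further genes on the same strand were higher in 412KD. The centrosome gene spd-2 had 406, 416 and 954 normalized counts in 412KD, against 85.8, 76.3 and 44.9 in scramble. It rose by all 3 alternative fits, with log2 fold change 3.10 ± 0.44 (edgeR adjusted p = 0.0956), and with 2.57 without 412KD replicate 3. Abl, the gene of a tyrosine kinase that acts on the actin cytoskeleton, had 5742, 6556 and 1980.4 normalized counts in 412KD, against 1754, 1775 and 1571 in scramble. It too rose by all 3 alternative fits (log2 fold change 1.49 ± 0.42, edgeR adjusted p = 0.306, and 1.85 without 412KD replicate 3). The rise of Abl was large in 412KD replicates 1 and 2 and small in replicate 3.

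Genes between and around these 3 were not called. CG32165, which lies between spd-2 and CR18217 on the other strand and shares 12 exonic bases with CR18217, had 247, 315 and 301 normalized counts in 412KD, against 278, 326 and 258 in scramble (log2 fold change 0.00 ± 0.15, edgeR adjusted p = 0.995). Of 24 other genes tested within 100 kb of CR18217, DESeq2 called 2, spd-2 and Abl. The remaining 22 had log2 fold changes between −0.79 and 0.97, with a median of −0.04. In the reference annotation an insertion of the retrotransposon 297 overlaps 41.1% of the exonic bases of Abl, on the opposite strand, and the use of strand in counting is not recorded.

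A run of 3 neighbouring genes on 2R was lower in 412KD. The nuclear receptor gene Hr51 (15331325 to 15339384) had 9.70, 14.6 and 6.55 normalized counts in 412KD, against 69.4, 82.7 and 161 in scramble, with log2 fold change −3.33 ± 0.47 (edgeR adjusted p = 0.0832, DESeq2 adjusted p = 4.94e-08, voom adjusted p = 0.0529). The netrin receptor gene unc-5 beside it had 459, 401 and 322 normalized counts in 412KD, against 1328, 1202 and 2356 in scramble (log2 fold change −2.05 ± 0.29, edgeR adjusted p = 0.0956, DESeq2 adjusted p = 1.90e-09, voom adjusted p = 0.0307). On its other side CG8160 had 1.21, 2.73 and 3.74 normalized counts in 412KD, against 19.2, 11.8 and 41.8 in scramble (log2 fold change −3.14 ± 0.67, edgeR adjusted p = 0.183, DESeq2 adjusted p = 0.0122). In none of the 3 did the groups overlap, but none passed all 3 alternative fits. The 12 genes within 100 kb of Hr51 that DESeq2 did not call had a median log2 fold change of 0.02.

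**Figure D2:**
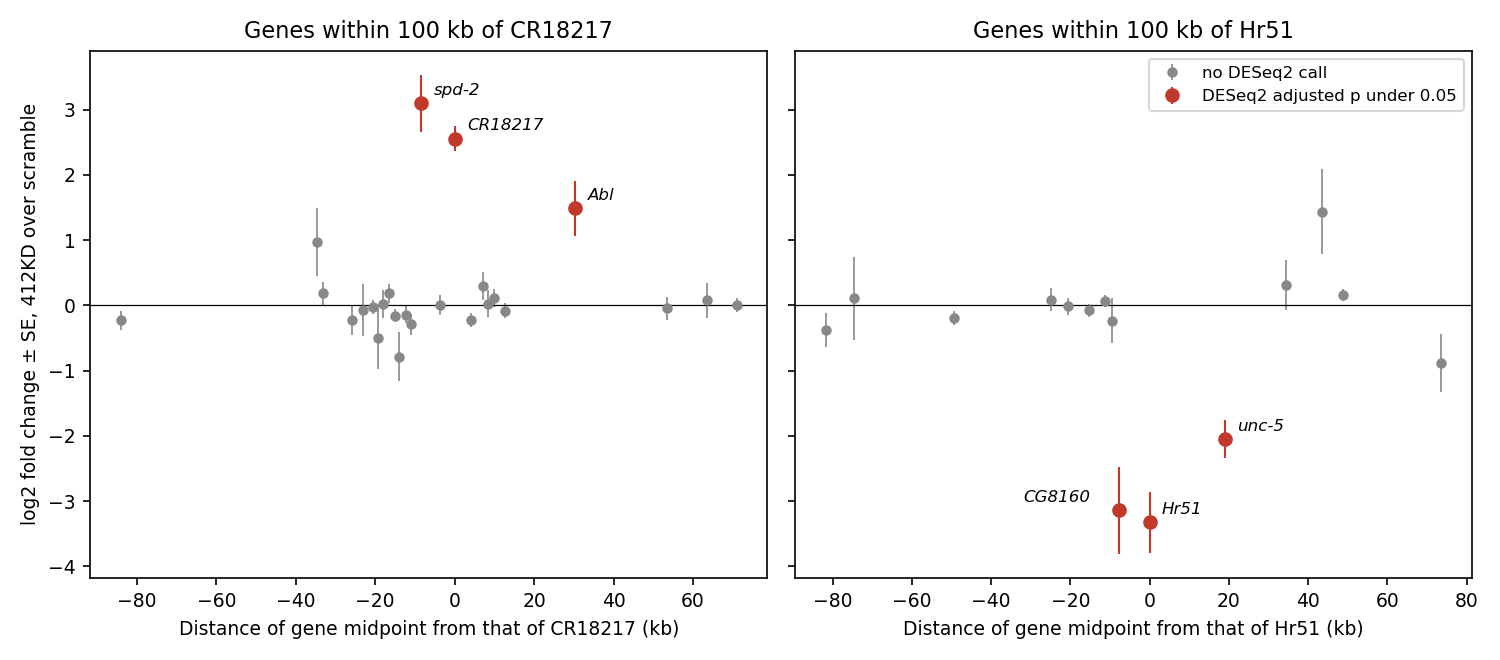
Log2 fold change of 412KD over scramble, with its standard error as bars, for each gene tested within 100 kb of CR18217 (left) and of Hr51 (right), by the distance between gene midpoints in kb. The 3 called genes of each stretch stand apart from the other genes, which lay between −0.79 and 0.97 on the left and between −0.89 and 1.44 on the right.

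The tandem gene clusters of digestive proteases included several upward calls. The 16 Jonah genes, which encode trypsin-like and chymotrypsin-like proteases of the midgut, all had log2 fold changes above 0, with a median of 3.83, against 0.01 over all genes. Without 412KD replicate 3 the median was 2.39. Their summed level was 14480, 11610 and 15650 CPM in 412KD, against 5314, 3996 and 7809 CPM in scramble. edgeR called 0 of the 16, DESeq2 10, voom 3 and edgeR without 412KD replicate 3 also 3, all upward, against 0.0192%, 1.89%, 0.623% and 0.831% of all features. Members of such clusters are alike in sequence, so the value of a single copy is uncertain.

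In the 25B cluster on 2L, 2 Jonah genes rose by all 3 alternative fits. Jon25Bii had 3079, 3342 and 3360.3 normalized counts in 412KD, against 574, 329.9 and 774 in scramble, and the log2 fold change was 2.54 ± 0.30 (edgeR adjusted p = 0.0795, all 3 alternative fits passed). Jon25Bi had 10439, 8623 and 5256 in 412KD, against 2528, 1493 and 2478 in scramble (log2 fold change 1.90 ± 0.31, edgeR adjusted p = 0.124, all 3 alternative fits passed). Beside them Jon25Biii was much higher in 412KD replicate 3 than in the others, with 3711, 1804 and 15781 normalized counts in 412KD, against 376, 112 and 389 in scramble. It passed DESeq2 alone (log2 fold change 4.60 ± 0.99, edgeR adjusted p = 0.209, DESeq2 adjusted p = 0.000458), and the log2 fold change was 3.23 without 412KD replicate 3.

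In the 99C cluster on 3R the libraries of 412KD also lay far apart in 2 of the genes. Jon99Ci had 1741, 968 and 1676 normalized counts in 412KD, against 185, 59.1 and 51.0 in scramble (log2 fold change 3.88 ± 0.56, edgeR adjusted p = 0.0956). It passed DESeq2 and voom and missed the fit without 412KD replicate 3 (edgeR adjusted p = 0.0944). Its neighbours Jon99Cii and Jon99Ciii had 37978 and 28255 normalized counts in 412KD replicate 3, far above 412KD replicates 1 and 2 (3512 and 5449.8 for Jon99Cii, 2612 and 3608 for Jon99Ciii), and 19.3 to 457 in scramble. Both passed DESeq2 alone among the 3 alternative fits, with log2 fold changes of 5.68 and 5.53, or 3.87 and 3.64 without 412KD replicate 3. The most abundant Jonah genes, Jon65Aiii and Jon65Aiv, differed by 1.0 ± 0.23 and 1.06 ± 0.26 on the log2 scale (edgeR adjusted p = 0.232 and 0.250), and neither showed an overlap between the groups.

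Other enzymes of digestion were mostly higher as well, by smaller amounts. Of 12 trypsin genes tested, 11 had log2 fold changes above 0, with a median of 0.57, and of 13 amylase and maltase genes 11 did, with a median of 0.65, where 51% of all features did. Without 412KD replicate 3 these medians were 0.54 and 0.93. DESeq2 called 3 trypsin genes up, neighbours on 2R, against 1.89% of all features. epsilonTry had 18676, 14225 and 9878 normalized counts in 412KD, against 6111, 4109 and 4964 in scramble, and rose with log2 fold change 1.49 ± 0.26 (edgeR adjusted p = 0.131). betaTry and alphaTry differed by 1.21 ± 0.24 and 0.89 ± 0.24 on the log2 scale (edgeR adjusted p = 0.151 and 0.287) and passed DESeq2 alone. Of 6 lysozyme genes tested, DESeq2 called 2 up, LysD and LysB, against 1.89% of all features. They differed by 1.16 ± 0.34 and 1.33 ± 0.41 on the log2 scale (edgeR adjusted p = 0.319 and 0.338).

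Among the maltases, which release glucose from maltose, DESeq2 called 3 genes up and 1 down, against 1.89% and 1.08% of all features. Mal-A7 had 1389, 209 and 735 normalized counts in 412KD, against 90.4, 41.9 and 22.4 in scramble (log2 fold change 3.90 ± 0.82, edgeR adjusted p = 0.194, DESeq2 adjusted p = 0.000864). Mal-B1 was lower, with 737, 600.2 and 1367 normalized counts in 412KD, against 5376, 3517 and 2042 in scramble (log2 fold change −2.02 ± 0.45, edgeR adjusted p = 0.216, DESeq2 adjusted p = 3.85e-05, voom adjusted p = 0.0484). Bace, an aspartic protease gene of the midgut, had 25736, 14913 and 30312 normalized counts in 412KD, against 8714, 5502 and 6386 in scramble (log2 fold change 1.78 ± 0.30, edgeR adjusted p = 0.124, DESeq2 adjusted p = 1.43e-07). The 3 scramble libraries lay below all 3 libraries of 412KD for Mal-A7 and Bace and above them for Mal-B1. Bace and the lipase gene mag belong to a list of other midgut genes, which as a whole differed little. Of its 28 genes tested, 19 lay above 0, where 51% of all features did, with a median log2 fold change of 0.20. DESeq2 called 3 of them up, against 1.89% of all features. The summed level of the list was 8114, 8249 and 7396 CPM in 412KD, against 5862, 6782 and 7401 CPM in scramble.

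Among lipase genes close together on 3R, CG6296 rose, with 339, 277 and 596 normalized counts in 412KD, against 97.7, 51.6 and 69.4 in scramble (log2 fold change 2.47 ± 0.37, edgeR adjusted p = 0.0956). Nearby, CG6295 and CG6283 differed by 2.22 ± 0.53 and 2.57 ± 0.65 on the log2 scale (edgeR adjusted p = 0.245 and 0.263) and passed DESeq2 alone. For CG6295 the value was 1.52 without 412KD replicate 3. The intestinal lipase gene mag had 246, 41.8 and 2204 normalized counts in 412KD, against 13.7, 2.15 and 29.6 in scramble, so that most of its difference lay in 412KD replicate 3 (log2 fold change 5.76 ± 1.67, edgeR adjusted p = 0.319, and 3.21 without that library).

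A gene of a gut and brain peptide rose as well. Tk encodes tachykinin, a peptide hormone of enteroendocrine cells and a neuropeptide of the brain. It had 513, 377 and 442 normalized counts in 412KD, against 191, 186 and 145 in scramble, and rose with log2 fold change 1.35 ± 0.17 (edgeR adjusted p = 0.0795, all 3 alternative fits passed). Dh31, another peptide gene of these cells, had 560.0, 617 and 513 normalized counts in 412KD, against 298, 441 and 273 in scramble (log2 fold change 0.74 ± 0.20, edgeR adjusted p = 0.271, DESeq2 adjusted p = 0.0381). Of 13 enteroendocrine peptide genes 8 had log2 fold changes above 0, where 51% of all features did, with a median of 0.13. DESeq2 called Tk and Dh31 alone, both up, against 1.89% of all features.

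The genes carried by the mitochondrial genome, which encode core subunits of the respiratory chain and of ATP synthase, all lay above 0. The median log2 fold change of the 13 protein genes was 0.96, and 0.88 without 412KD replicate 3. For 10 of the 13, all 412KD libraries lay above all scramble libraries, as in 8.7% of all features. edgeR called 0 (0.0192% of all features up), DESeq2 7 (1.89%) and voom 1 (0.623%). Without 412KD replicate 3, edgeR called 0 of them (0.831%). mt:CoII, which encodes part of cytochrome c oxidase, had 65081, 55362 and 95187 normalized counts in 412KD, against 29550.0, 25879 and 36134 in scramble (log2 fold change 1.24 ± 0.23, edgeR adjusted p = 0.143, DESeq2 adjusted p = 5.26e-05, voom adjusted p = 0.0306). The 67 nuclear genes of oxidative phosphorylation had a median of 0.15, and none was called by DESeq2, voom or either edgeR fit. Of all features, DESeq2 called 2.97%, voom 0.863% and the edgeR fits 0.0192% and 0.991%. For the 67 genes, library medians are given next. Their library medians overlapped between the groups, at 0.26, −0.15 and 0.31 in 412KD and −0.11, −0.09 and 0.23 in scramble, as log2 differences from the scramble mean.

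Genes of muscle and neurons lay mostly a little above 0. Of 35 flight muscle genes 29 lay above 0, with a median log2 fold change of 0.22 and of 0.16 without 412KD replicate 3, and of 19 neuronal genes 17 did, with a median of 0.17, while 20 fat body genes were split evenly. None of the muscle and neuronal genes was called by edgeR, DESeq2, voom or edgeR without 412KD replicate 3. Over all features, 51% lay above 0, and these fits called 0.0192%, 2.97%, 0.863% and 0.991%. At those shares, lists of this size would hold few or no calls. The 13 genes of the siRNA and microRNA machinery, through which a hairpin acts, had a median of −0.03 and no call by any of these fits. The piRNA pathway, which represses transposons chiefly in the gonad, had 25 of 29 genes above 0 and a median of 0.34, which became −0.03 without 412KD replicate 3, the library with the highest ovary levels.

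**Figure D3:**
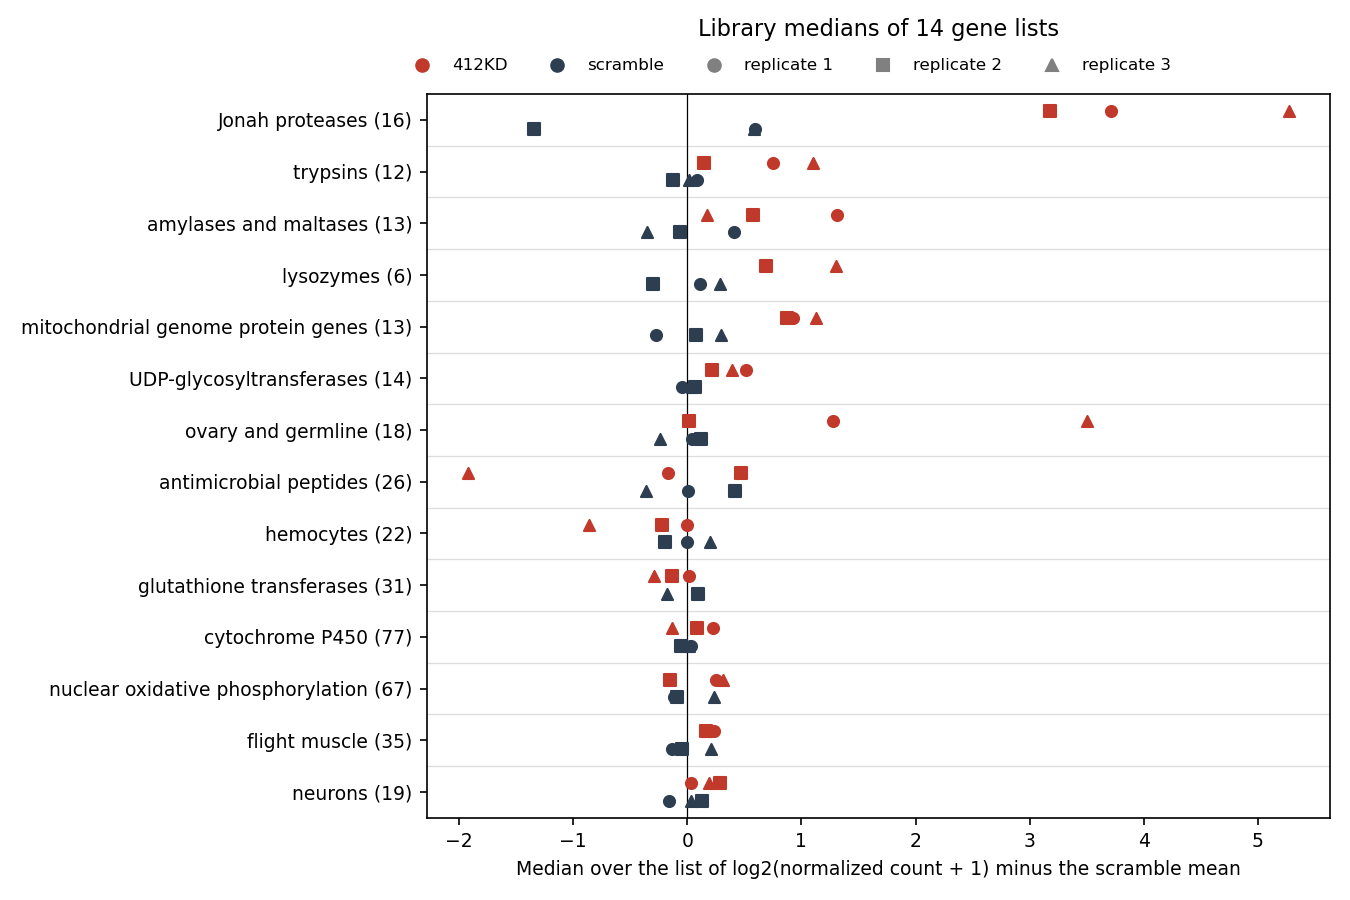
Median of 14 gene lists in each library, as log2(normalized count + 1) minus the mean of the 3 scramble libraries, with the number of genes tested in parentheses. For the Jonah proteases the 412KD libraries lay at 3.71, 3.18 and 5.27 and scramble at 0.59, −1.34 and 0.58. In the antimicrobial peptide list 412KD replicate 3 (triangles) stood away from the other libraries. In the ovary list it lay at 3.5 and 412KD replicate 1 at 1.28, with the other libraries between −0.235 and 0.12.

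Genes of humoral immunity and stress differed strongly among the 3 libraries of 412KD. The Turandot genes encode small secreted stress proteins. TotA had 71789, 13252 and 2339.6 normalized counts in 412KD, against 3360.0, 1184 and 1308 in scramble, so that 412KD replicate 3 fell within the range of scramble. TotC had 36824, 10618 and 1586 in 412KD, against 1299, 594 and 702 in scramble (log2 fold change 4.24 ± 1.12, edgeR adjusted p = 0.283, DESeq2 adjusted p = 0.00782). On the same arm TotX had 2827, 326 and 149.7 in 412KD, against 81.2, 63.4 and 34.7 in scramble (DESeq2 adjusted p = 0.0168). All 3 had edgeR log2 fold changes between 3.90 and 4.24 with standard errors over 1.

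Antimicrobial peptide genes showed no common direction. Of 26 tested, 9 had log2 fold changes above 0, with a median of −0.35, which became 0.11 without 412KD replicate 3. DESeq2 called 1 up and 2 down, against 1.89% and 1.08% of all features. Without 412KD replicate 3, edgeR called 3 up and 0 down, against 0.831% and 0.16% of all features. The library medians were −0.17, 0.47 and −1.92 in 412KD, against 0.01, 0.42 and −0.36 in scramble. AttA, an attacin, had 760.1, 1143 and 164 normalized counts in 412KD, against 93.1, 134 and 73.4 in scramble (log2 fold change 2.78 ± 0.69, edgeR adjusted p = 0.256, DESeq2 adjusted p = 7.07e-05). Drsl5, a drosomycin-like gene, was lower, with 458, 266 and 177 in 412KD, against 1612, 926 and 2269 in scramble (log2 fold change −2.42 ± 0.45, edgeR adjusted p = 0.151, DESeq2 adjusted p = 3.85e-07).

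Hemocyte genes leaned downward by little. Of 22 tested, 14 lay below 0, with a median log2 fold change of −0.19, and of −0.14 without 412KD replicate 3, and the library medians of the groups overlapped. In 6 of the 22 all 412KD libraries lay below all scramble libraries, as in 9.01% of all features. DESeq2 called 2 down (1.08% of all features), the neighbouring phagocytosis receptor genes NimC1 and NimC2, and the other fits 0. NimC1 had 2598, 2633 and 1435 normalized counts in 412KD, against 4486, 3619 and 4823 in scramble (log2 fold change −0.96 ± 0.25, edgeR adjusted p = 0.270). NimC2, with 18.7% of its exonic bases under rk on the opposite strand, had the log2 fold change −1.12 ± 0.29 (edgeR adjusted p = 0.270).

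Among the other genes that rose were phr, bgm and Fad2. phr, which encodes a photolyase that repairs pyrimidine dimers in DNA, had 433, 420.1 and 309 normalized counts in 412KD, against 80.3, 72.0 and 103 in scramble. Its log2 fold change was 2.18 ± 0.20 (edgeR adjusted p = 0.0579), next after the called genes in edgeR's order. bgm, a very long chain acyl-CoA synthetase gene, had 4768, 5900.0 and 3822 normalized counts in 412KD, against 2199.9, 2124 and 1822 in scramble (log2 fold change 1.24 ± 0.17, edgeR adjusted p = 0.0832). The fatty acid desaturase gene Fad2 had 4410.1, 4559 and 4649 in 412KD, against 2026, 1341 and 2136 in scramble (log2 fold change 1.31 ± 0.18, edgeR adjusted p = 0.0815). In these 3 genes no library of one group reached the range of the other. The 32 genes of a DNA repair and checkpoint list had a median of 0.02, with 17 above 0 and no call by any of the fits. The fit with most calls, DESeq2, called 2.97% of all features. The 23 genes of a lipid metabolism list had a median of 0.24, with 16 above 0, where 51% of all features were. DESeq2 called 1 of these 23 up, against 1.89% of all features.

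The UDP-glycosyltransferases, which attach sugars to small molecules, had 12 of 14 genes above 0, against 51% of all features, and a median of 0.41, or 0.27 without 412KD replicate 3. DESeq2 called 2 up, Ugt37b1 and Ugt36Bc (1.89% of all features). Ugt37b1 rose, with 70.3, 42.7 and 139 normalized counts in 412KD, against 7.30, 9.67 and 8.16 in scramble (log2 fold change 3.31 ± 0.51, edgeR adjusted p = 0.0956). Ugt36Bc had 2040.2, 1661 and 2046 in 412KD, against 1115, 1196 and 1134 in scramble (log2 fold change 0.74 ± 0.11, edgeR adjusted p = 0.0956), and missed the fit without 412KD replicate 3 by little (edgeR adjusted p = 0.0505). Further genes that rose by all 3 alternative fits were ry, the gene of xanthine dehydrogenase (log2 fold change 0.69, edgeR adjusted p = 0.152), Eip71CD, a methionine sulfoxide reductase gene (1.52, 0.124), and HIP, a co-chaperone gene (0.75, 0.138).

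Receptor genes that rose were mthl8, wit and Gyc32E. The methuselah-like receptor gene mthl8 had 267, 290.1 and 237 normalized counts in 412KD, against 22.8, 17.2 and 6.12 in scramble (log2 fold change 4.08 ± 0.40, edgeR adjusted p = 0.0645). The 11 methuselah receptor genes tested had a median of −0.09. DESeq2 called 1 of them up and 2 down, against 1.89% and 1.08% of all features. Among those lower, mthl14 had 304, 246 and 278 in 412KD, against 539, 581 and 430.5 in scramble (−0.90 ± 0.15, edgeR adjusted p = 0.121, voom adjusted p = 0.032). wit, a type II receptor of the BMP pathway at the neuromuscular junction, had 3529, 3817 and 1124 in 412KD, against 626, 521 and 774 in scramble (2.14 ± 0.46, edgeR adjusted p = 0.197). Its rise was large in 412KD replicates 1 and 2 and small in replicate 3, as for Abl, and 9.49% of its exonic bases overlap dib on the opposite strand. The guanylyl cyclase receptor gene Gyc32E had 66.7, 89.1 and 75.8 in 412KD, against 12.8, 22.6 and 15.3 in scramble (2.19 ± 0.30, edgeR adjusted p = 0.0809). CG3117 had the largest log2 fold change of the 38 genes that rose in all 3 alternative fits, 5.66 ± 0.70 (edgeR adjusted p = 0.0795), with 773, 799 and 234 in 412KD, against 6.39, 22.6 and 7.14 in scramble. Of RNAs with no protein product, asRNA:CR43480 and lncRNA:CR45645 rose, with log2 fold changes 2.65 ± 0.40 and 3.67 ± 0.55 (edgeR adjusted p = 0.0956 for both). The exons of asRNA:CR43480 overlap CG17162 on the opposite strand in 17.8% of their bases.

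Most of the other genes that rose by all 3 alternative fits carry annotation numbers only. CG13325 had 565, 607 and 299 normalized counts in 412KD, against 91.3, 88.1 and 113 in scramble (log2 fold change 2.33 ± 0.29, edgeR adjusted p = 0.0795). CG15358 had 282, 256 and 299 in 412KD, against 87.6, 60.2 and 88.7 in scramble (1.82 ± 0.19, edgeR adjusted p = 0.0703), and its libraries were close together in both groups. CG9394, a predicted glycerophosphodiester phosphodiesterase gene, had 2136, 1895 and 2543 in 412KD, against 928, 864 and 1123 in scramble (1.17 ± 0.15, edgeR adjusted p = 0.0795). The smallest rise was that of CG6638, a predicted isovaleryl-CoA dehydrogenase gene, with 501, 477 and 471 in 412KD, against 300.3, 323 and 304 in scramble (0.64 ± 0.10, edgeR adjusted p = 0.0956). Over all 38 genes the median log2 fold change was 1.51.

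**Figure D4:**
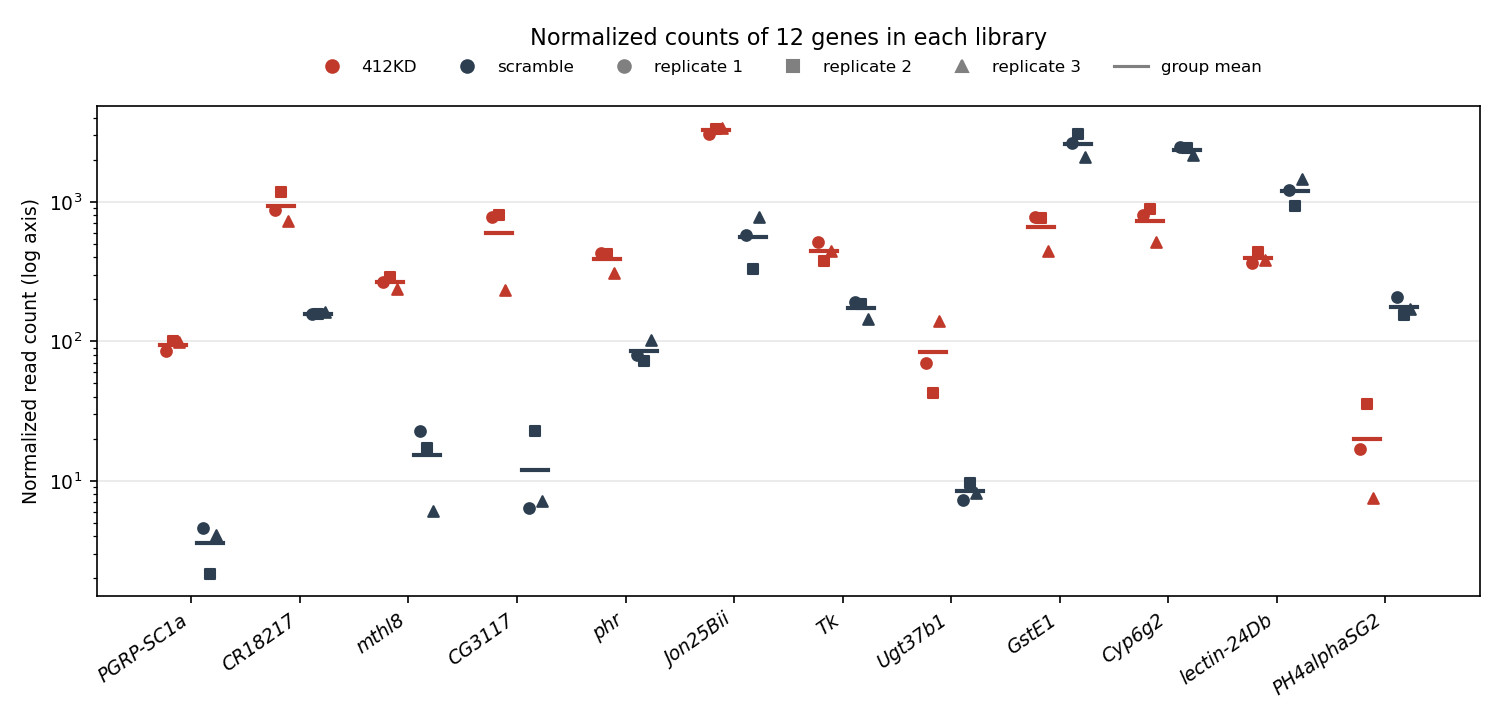
Normalized read counts (log axis) of 12 genes in each of the 3 libraries of 412KD (left of each pair) and of scramble (right), with the group means as lines. In each of the 12 the groups did not overlap, and CG3117 shows the wide spread within 412KD, from 234 to 799.

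On the downward side stood genes of detoxification enzymes. GstE1, a glutathione transferase gene, had 778, 767 and 442 normalized counts in 412KD, against 2659, 3079.8 and 2107 in scramble, and fell by 1.98 ± 0.25 on the log2 scale (edgeR adjusted p = 0.0806). The cytochrome P450 gene Cyp6g2 had 799, 888 and 514 in 412KD, against 2477, 2453 and 2171 in scramble (log2 fold change −1.69 ± 0.21, edgeR adjusted p = 0.0795). The 31 glutathione transferase genes had a median of −0.15, with no other member called by any of the fits, and of the 77 P450 genes 44 lay above 0, near the 51% of all features, with 3 called up and 5 down by DESeq2, against 1.89% and 1.08% of all features. Among the P450 genes Cyp4p1 was lower as well (log2 fold change −1.29 ± 0.25, edgeR adjusted p = 0.151, voom adjusted p = 0.0452) and Cyp6a14 higher (1.09 ± 0.19, edgeR adjusted p = 0.124, voom adjusted p = 0.0263), with 30.1% of its exonic bases inside an annotated transposon insertion.

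Of the 14 genes that fell, CG6280 had the largest log2 fold change, −3.51 ± 0.75 (edgeR adjusted p = 0.184), with 0, 1.82 and 7.48 normalized counts in 412KD, against 32.9, 50.5 and 32.6 in scramble. Without 412KD replicate 3 its value was −5.07. PH4alphaSG2 came next, an alpha subunit of prolyl 4-hydroxylase, the enzyme that modifies collagen chains. It had 17, 35.5 and 7.48 normalized counts in 412KD, against 207, 154 and 169 in scramble (log2 fold change −3.13 ± 0.50, edgeR adjusted p = 0.115). The C-type lectin gene lectin-24Db had 365, 436 and 381 in 412KD, against 1209, 927 and 1467 in scramble (−1.61 ± 0.18, edgeR adjusted p = 0.0795). The snoRNA host gene Uhg4 and the Integrator subunit gene IntS12 also fell, by 1.19 ± 0.15 and 1.48 ± 0.31 on the log2 scale (edgeR adjusted p = 0.0795 and 0.177). In none of these genes did a library of 412KD reach the lowest scramble library. Uhg4 shares 26.9% of its exonic bases with Ctu1 on the opposite strand. The lipocalin gene Karl had 656, 552 and 413 in 412KD, against 1094, 1019.8 and 1199 in scramble (−1.03 ± 0.18, edgeR adjusted p = 0.125), and 24.2% of its exonic bases overlap an antisense RNA gene. The other 6 genes that fell carry only annotation numbers, and their log2 fold changes ran from −1.98 for CG12934 (edgeR adjusted p = 0.127) to −0.91 for CG4927 (edgeR adjusted p = 0.0956).

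Some of the deepest differences passed DESeq2 only. The copper oxidase gene MCO3 had 2.42, 4.55 and 0.935 normalized counts in 412KD, against 189.9, 112 and 36.7 in scramble, and lncRNA:CR45662 had 1.21, 1.82 and 4.68 in 412KD, against 277, 129 and 59.2 in scramble. Their log2 fold changes were −5.34 ± 0.81 and −5.81 ± 0.79 (edgeR adjusted p = 0.0972 and 0.0832), and the scramble libraries themselves lay far apart. The fructose receptor gene Gr43a had 101, 171 and 35.5 in 412KD, against 1483, 2757 and 942 in scramble (−4.07 ± 0.66, edgeR adjusted p = 0.124), and 10.2% of its exonic bases overlap Dhx15 on the opposite strand. Lsp1beta, a larval storage protein gene, had 698, 917 and 1365 in 412KD, against 6281, 6656 and 1816 in scramble (−2.31 ± 0.53, edgeR adjusted p = 0.233).

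Some of DESeq2's upward calls were led by 1 library. Of its 193 upward calls among features that edgeR tested, 62, 45 and 86 were highest in 412KD replicates 1, 2 and 3. In 23 of the 193, replicate 3 was over 4-fold above both others of its group. The share of all features with this pattern was not counted. Because voom gave that library a weight of 0.274, its 1 call among these 23 is no separate evidence. Genes of the female germline belonged to them: yl, the yolk receptor of the oocyte, had 701, 10.9 and 4626 normalized counts in 412KD, against 2.74, 0 and 0 in scramble, and CycB, a mitotic cyclin, had 552, 93.7 and 5513, against 84.0, 75.2 and 61.2. In both, 412KD replicate 3 was highest and replicate 2 lowest within the group. In CG8664 replicate 3 was the lowest, with 1211, 756 and 97.3 normalized counts in 412KD, against 0, 0 and 4.08 in scramble (edgeR adjusted p = 0.124 with all libraries and 0.00301 without 412KD replicate 3).

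By chromosome, DESeq2 called 2.8% to 3.08% of the genes tested on X, 2L, 2R, 3L and 3R, 0 of 91 on chromosome 4 and 33.3% of the 21 on the mitochondrial genome. Among repeat features, 80 were tested and DESeq2 called 4 up and 3 down, against 2.97% of all features in either direction. The 4 higher were M4DM, NOMAD_I, FB4_DM and MAX_I, with log2 fold changes of 2.42, 1.49, 0.84 and 0.66. NOMAD_I had 174, 521 and 350 reads in 412KD, against 80, 160 and 114 reads in scramble (edgeR adjusted p = 0.28). Gypsy_LTR had 66, 63 and 19 reads in 412KD, against 335, 362 and 620 reads in scramble, with log2 fold change −3.11 (edgeR adjusted p = 0.138). The telomeric element TART_B1 had 131, 278 and 363 reads in 412KD, against 569, 459 and 609 in scramble (log2 fold change −1.12, edgeR adjusted p = 0.245, voom adjusted p = 0.0422).

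A direct comparison of the 2 hairpins shows where 412KD differed from RooKD, with all 9 libraries in the fit and counts scaled over these. edgeR called 6 genes higher in 412KD (0.0566%) and 4 lower (0.0377%), together 0.0943% of 10599 features. CR18217 had 829, 1118 and 694 normalized counts in 412KD, against 148, 139 and 159.7 in RooKD, a log2 difference of 2.57 (edgeR adjusted p = 0.000667), and 148 to 153 in scramble. This call held in each of the other fits of the 2 hairpins, DESeq2 and each library left out included. CG3117 had 733, 757 and 222 in 412KD, against 5.98, 0 and 0 in RooKD (edgeR adjusted p = 0.0479). Besides these, slmo had 59.8, 31.0 and 39.0 in 412KD, against 3.99, 6.70 and 6.49 in RooKD (edgeR adjusted p = 0.0479), but 93.8% of its exonic bases overlap CG34179 on the same strand.

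Lower in 412KD than in RooKD were lectin-24Db, CG11893, CG12934 and Cyp4p1. lectin-24Db had 346, 413 and 361 normalized counts in 412KD, against 1102, 884 and 1010.0 in RooKD (log2 difference −1.42, edgeR adjusted p = 0.0365). CG11893 had 66.7, 76.7 and 36.3 in 412KD, against 562, 446 and 499.8 in RooKD (−3.07, edgeR adjusted p = 0.0226). For CG12934 and Cyp4p1 the log2 differences were −2.83 and −1.87 (edgeR adjusted p = 0.0479 for both). In these genes the libraries of 412KD lay below those of both other groups.

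The other 3 genes called higher in 412KD than in RooKD stood close to scramble in 412KD. They are Reepl1, CG11699 and the kinetochore gene Kmn1, neighbours on X. Reepl1 had 139, 118 and 116 normalized counts in 412KD, against 0 in all 3 RooKD libraries and a scramble range of 152 to 184. Setting each RooKD library at 3 reads, and scaling by the one with fewest reads, makes it at least 31.9-fold higher in 412KD (edgeR adjusted p = 0.000364). Kmn1 and CG11699 share 148 exonic bases on opposite strands and had log2 differences of 2.24 and 4.37 (edgeR adjusted p = 0.0226 and 0.0479). An antisense RNA gene overlaps 77.4% of the exonic bases of CG11699. An annotated insertion of the transposon pogo overlaps 18.6% of those of Kmn1, and both overlaps are on the opposite strand.

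Of the 52 genes that passed all 3 alternative fits against scramble, 4 were called between the hairpins, against 0.0943% of all features. The 52 were selected with the same 412KD libraries, so the 2 selections are not independent. In 33 of the 52 the log2 difference between the hairpins was under 1 in size. The share of all features under 1 was not counted, so the 33 alone do not show that the hairpins were alike. Both comparisons with scramble use the same 3 control libraries, so the values of the 2 hairpins are given side by side. PH4alphaSG2 had 16.1, 33.6 and 7.09 normalized counts in 412KD, against 14, 10.1 and 7.79 in RooKD and a scramble range of 146 to 197. Hr51 had 9.19, 13.8 and 6.20 in 412KD, against 6.98, 7.82 and 7.79 in RooKD and a scramble range of 65.8 to 153. For these genes the log2 differences between the hairpins were 0.82 and 0.37 (edgeR adjusted p = 0.951 and 0.997). RooKD also lay below all scramble libraries in MCO3 (1.99, 0 and 0), lncRNA:CR45662 (2.99, 1.12 and 3.90) and Gr43a (8.97, 48.0 and 14.3). Lsp1beta, with 1982, 3129 and 3711 in RooKD, overlapped the scramble range. Among digestive genes, RooKD lay above all scramble libraries in Jon25Bii (1031, 2496 and 2076), Jon99Ci (390, 375 and 391) and Bace (11230, 11120 and 18920). It overlapped the scramble range in Jon25Biii (10580, 265 and 297), Jon65Aiv (79290, 110000 and 125800) and CG6296 (12.95, 153 and 134). Higher levels than in scramble were thus not particular to 412KD in each of these genes. PGRP-SC1a had 80.5, 95.6 and 93.0 in 412KD, but 207, 1.12 and 1.30 in RooKD, where 1 library stood apart. mthl8 was alike in this, with 253, 275 and 224 in 412KD and 271, 0 and 0 in RooKD. So were spd-2 (507.2, 27.92 and 48.04 in RooKD) and Gyc32E (128.5, 12.29 and 12.98 in RooKD). In each of these genes the library apart was RooKD replicate 1. That library also had the highest RooKD levels of the female germline genes yl (2518, 0 and 0) and CycB (4421, 40.21 and 88.28). The part of ovarian RNA in these differences was not tested.

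**Figure D5:**
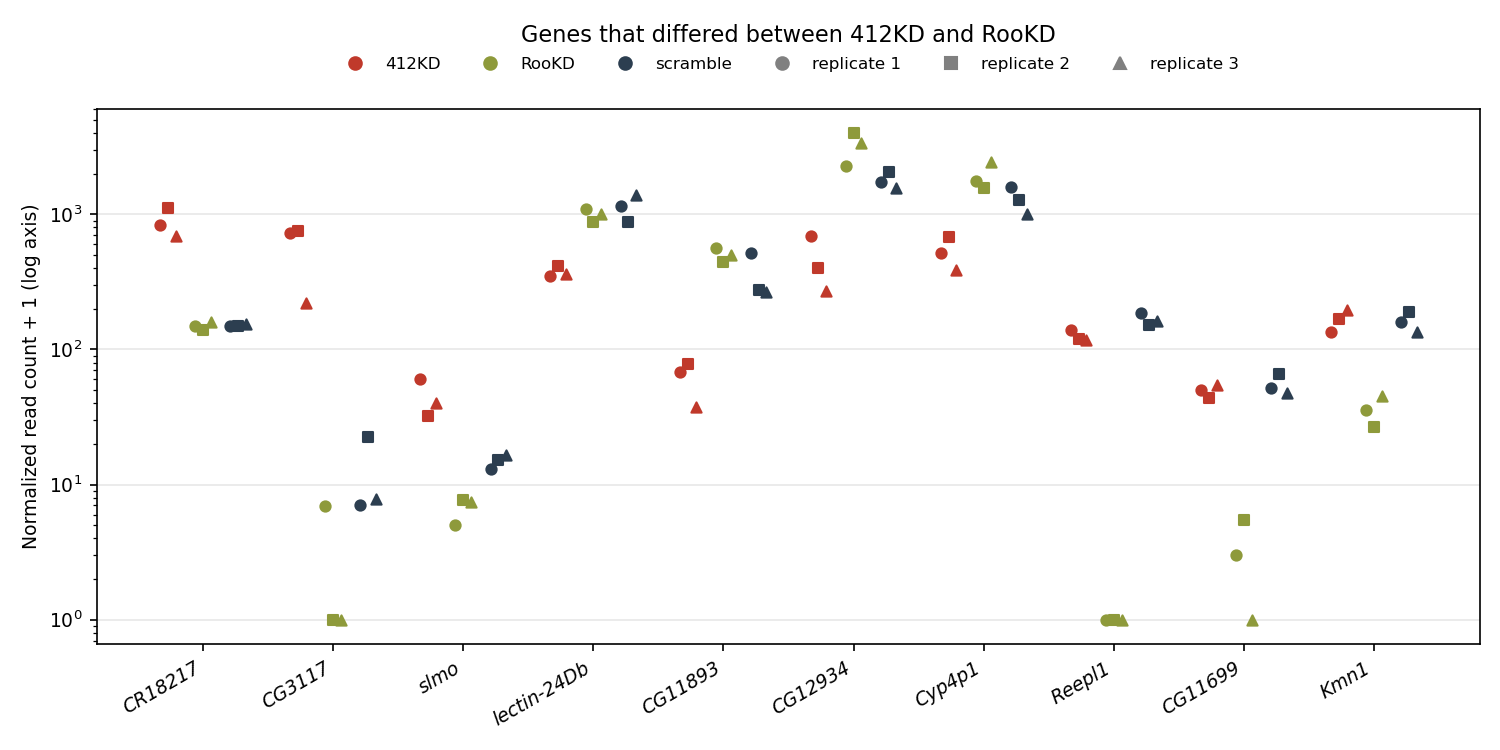
Normalized read count + 1 (log axis) of the 10 genes called between 412KD and RooKD, with 3 libraries each of 412KD (left), RooKD (middle) and scramble (right). In 7 genes the 412KD libraries stand apart from both other groups, and in Reepl1, CG11699 and Kmn1 the RooKD libraries do.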

How the data were processed

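Raw read counts of 6 libraries, 3 of 412KD and 3 of scramble, were taken from the deposited table, and those of 3 RooKD libraries from a separate deposited table. Per the submitters' processing notes, HISAT2, DESeq2 and the build dm6 were used; no version is recorded. For the counting tool, for strand and for multiply mapped reads nothing is stated in those notes. The deposited signal columns, counts divided by 1 size factor per library, the deposited FPKM values and the deposited log2 fold changes and p-values were used for checks only. The authors' deposited table called 217 features up and 123 down.

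Features were filtered by filterByExpr and tested with edgeR 4.0.16 (R 4.3.3; TMM, robust quasi-likelihood fit, adjusted p of 0.05). Normalized counts are read counts on TMM-scaled library sizes. DESeq2 1.42.0, voom with sample quality weights (limma 3.58.1), other scalings and filters, a replicate block and leaving out each library were alternatives, and the fits were tested on simulated data. Intervals cover counting error only.

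The gene lists and members were chosen with earlier results of these data known. The lysozyme and heat shock lists were each corrected by 1 gene after values were seen. Genes were named by rules on edgeR and DESeq2 calls, fold change, abundance, list membership and runs of at least 3 DESeq2 calls within 50000 bases. Every gene that passed DESeq2, voom and edgeR without 412KD replicate 3 could be named as well, a criterion chosen after values were seen.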

Additional observations from a re-analysis of the deposited data

How the results depend on the processing

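The number of features called between 412KD and scramble was 2 with edgeR and stayed 2 with DESeq2's size factors, with upper quartile scaling and without robust estimation. It was 337 with DESeq2, 90 with voom, 14 with library totals, 15 without a filter on low counts, 4 with at least 50 reads in 3 libraries and 14 with all 9 libraries in the fit. It ranged from 0 to 105 when 1 library was left out, with 105 without 412KD replicate 3, and DESeq2 without that library called 526. Passing DESeq2, voom and edgeR without 412KD replicate 3 together, an alternative chosen after seeing the data, left 52. Between 412KD and RooKD the count was 10 with edgeR, 81 with DESeq2, 4 with the 6 hairpin libraries alone, 70 without 412KD replicate 3 and RooKD replicate 1, and 2 to 22 when 1 library was left out. With the replicate block, edgeR called 0 features against scramble, so that PGRP-SC1a and CR18217 were lost, and 4 against RooKD. The replicate numbers are shared by label only: deviations of same-numbered libraries correlated at 0.0919, 0.131 and 0.131, and each 412KD library correlated best with its own number, a hint from the data and not from the design. The 412 element's ratio of mean CPM, 412KD over scramble, was 1.19 with all its features and fell below 1 for the internal part alone, at 0.977 both as CPM and as edgeR's fold. The causes of these shifts were not tested. Of 113 genes recomputed under these settings, 2 with values near 0 changed sign. CG32165 was at −0.016 with upper quartile scaling, −0.12 with library totals and −0.067 to 0.10 with 1 library left out. Kmn1, against scramble, was at −0.076 with library totals and −0.082 to 0.18 with 1 library left out. The median of 15 of 55 gene lists changed sign without 412KD replicate 3, and of 4 without the filter. At 42 to 51 reads per group, a modest change of the 412 element was not detectable.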
